A study of Mus musculus with 6 samples.

Results

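Liver sinusoidal endothelial cells clear macromolecules from the blood through a set of surface receptors, and 7 of these receptor genes were followed here through mouse liver tumors. The members were the rows of the deposited count tables whose symbol was Stab1, Stab2, Clec4g, Lyve1, Fcgr2b, Gpr182 or Cd36, and all 7 were found among the 34099 genes listed. They were chosen by name, with earlier results of these data known, and no measured value was used to choose them. H22 tumor cells, a murine hepatocellular carcinoma (HCC) line, had been implanted in the liver of wild type male C57BL/6J mice that were 8 weeks old when obtained. The 3 stress mice had been exposed to chronic unpredictable mild stress (CUMS), a schedule of changing mild stressors, and the 3 control mice carried the same tumors without stressors. H22 cells had been propagated as ascites before implantation, so all 6 mice carried tumors of 1 transplanted line. Each mouse gave 1 10x Genomics single-cell library of fresh tumor tissue, and the authors' annotation placed 58794 cells in 10 cell types, with 11433 endothelial cells (ECs) in 7 numbered clusters.

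Sinusoidal ECs line the fenestrated capillaries of the liver and take up waste molecules by receptor-mediated endocytosis. Stab1 and Stab2 encode stabilin-1 and stabilin-2, large scavenger receptors that bind, among others, modified lipoproteins and, in the case of stabilin-2, hyaluronan. Clec4g encodes LSECtin, a C-type lectin, and Lyve1 encodes a hyaluronan receptor that is also carried by lymphatic vessels. Fcgr2b encodes the inhibitory IgG receptor, which in the liver removes small immune complexes and which B cells and myeloid cells carry too. Gpr182 encodes an atypical chemokine receptor, and Cd36 encodes a receptor for long-chain fatty acids and oxidized lipoproteins that is found on many vascular beds and on macrophages.

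A unique molecular identifier (UMI) tags each captured RNA molecule, so UMIs count molecules rather than amplified copies. For each mouse the UMIs of a cell type or cluster were summed, and a level is given as counts per 1000000 UMIs of that sum (CPM). The libraries held 7239 to 11752 annotated cells with 149558935 to 187728350 UMIs, and between 13 and 40 barcodes were shared by any 2 libraries. Control libraries were counted with Cell Ranger 9.0.0 and stress libraries with 7.1.0, as their headers state, and in every comparison below this difference of version and stress itself cannot be told apart. All 8 endothelial markers listed (Pecam1, Cdh5, Kdr, Eng, Ptprb, Tie1, Tek and Egfl7) had their highest mean level in ECs, as did all markers listed for NK/T cells, B cells and HSCs in their own type. Of the 6 tumor markers summed below, 3 were highest in tumor cells, while Krt8 and Epcam had their highest mean in HSCs and H19 in ECs. HSCs had only 6 and 8 cells in control mice 2 and 3, where the 6 tumor markers summed to 2313 and 2113 CPM. In HSCs of the other mice they summed to 61.6 to 419 CPM. The 6 markers listed for M-MDSCs were all higher in another cell type. Of the 8 DC markers 5 were highest in DCs, while Clec9a and Zbtb46 were highest in ECs and Cd74 in monocytes. EC cluster 16 stood apart when the mice were pooled, with a median of 20295 UMIs per cell among its cells of at least 1000 UMIs. Over all such ECs the median was 4695. Its depth was uneven, and the median over all its cells ranged from 2275.5 UMIs (stress mouse 1) to 24171 UMIs (stress mouse 3). Stress mouse 1 was the only mouse where this median lay below that of all its ECs (4749.5 UMIs). Of the cells of cluster 16, 32.5% to 61.2% were called doublets in a mouse. The cluster also had a summed level of 6 tumor markers of 456 to 714 CPM, against 17.2 to 57.3 CPM in cluster 2. It supplied 40.3%, 30.6% and 33.7% of the EC UMIs of control mice 1, 2 and 3 and 33.8%, 27.5% and 17.4% of those of stress mice 1, 2 and 3.

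In GENCODE M21 (GRCm38, the same assembly as mm10) all 7 genes lie on the minus strand. Stab1 (ENSMUSG00000042286) lies on chromosome 14 from 31139013 to 31168641, with 58 exonic regions. Stab2 (ENSMUSG00000035459) lies on chromosome 10 from 86841198 to 87008025, with 72 exonic regions. Both stabilin genes have many exons, unlike Gpr182 (ENSMUSG00000058396), which lies on chromosome 10 from 127747276 to 127751732 and has 2 exonic regions. Clec4g (ENSMUSG00000074491) lies on chromosome 8 from 3707064 to 3720651, and Lyve1 (ENSMUSG00000030787) on chromosome 7 from 110850607 to 110863239. Fcgr2b (ENSMUSG00000026656) lies on chromosome 1 from 170958617 to 170976547, and Cd36 (ENSMUSG00000002944) on chromosome 5 from 17781690 to 17888801. Lyve1 and Cd36 overlap no other annotated gene, whereas the other 5 overlap genes on the opposite strand, and whether strand was used in counting is not given in the sources used here. Fcgr2b also resembles its neighbour Fcgr3 in the part that encodes the extracellular domains, and reads that fit both could not be assigned from the deposited counts.

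The RefSeq promoter table (GRCm38.p6) held 5 of the 7 genes. The 250 bases before the start of Clec4g and Stab1 are shown, because the RefSeq and GENCODE starts of these genes coincide and because both had their highest mean level in EC cluster 2 but differed in cluster 15. The Clec4g window is chr8:3720652-3720901 and the Stab1 window chr14:31168642-31168891, both on the minus strand and written 5′ to 3′. Capitals mark the motif matches.
Clec4g: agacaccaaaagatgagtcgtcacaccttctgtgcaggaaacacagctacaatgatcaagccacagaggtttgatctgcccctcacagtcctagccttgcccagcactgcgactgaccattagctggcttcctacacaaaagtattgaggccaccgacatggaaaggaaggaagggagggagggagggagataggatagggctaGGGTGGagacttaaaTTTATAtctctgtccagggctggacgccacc
Stab1: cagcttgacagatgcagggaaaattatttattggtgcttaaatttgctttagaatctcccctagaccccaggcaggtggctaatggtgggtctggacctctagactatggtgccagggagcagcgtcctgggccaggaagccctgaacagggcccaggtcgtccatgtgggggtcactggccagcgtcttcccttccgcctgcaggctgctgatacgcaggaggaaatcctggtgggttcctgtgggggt
Searched on both strands were GATAAG for GATA factors, TGACTCA for the AP-1 factors, TGCTGAC for the core of MAF sites, AGGAAGT for the ETS factors, TATAAA for the TATA box, CCACCC for the KLF factors and ACAAAG for the SOX factors, none of which contains another. The Clec4g window held TATAAA on the opposite strand 31 bases before the start and CCACCC on the opposite strand 46 bases before it. These letters occur in 12.4% and 28.1% of the 32851 promoter windows of the same length. The Stab1 window held none of the 7 strings, which says only that these letters are not in those 250 bases. Of the windows not printed, Fcgr2b held CCACCC and Cd36 held ACAAAG once on each strand, a string found in 16.5% of all windows.

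ECs supplied most UMIs of every member. Over the 6 mice, ECs held a median of 95.4% of the Stab2 UMIs, 95.8% of those of Lyve1, 94.5% of those of Gpr182 and 94.0% of those of Clec4g. For Stab1, Cd36 and Fcgr2b the medians were 82.3%, 79.7% and 75.0%. The rest of the Fcgr2b UMIs came mainly from monocytes (median 17.1%), and the rest of the Cd36 UMIs from monocytes (10.8%) and tumor cells (4.61%). Stab1 differed in that tumor cells, the most numerous cell type, held a median of 14.2% of its UMIs and monocytes 2.97%. Cell types and clusters were built from these same genes among others, so their levels are a description without a test.

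**Figure D1:**
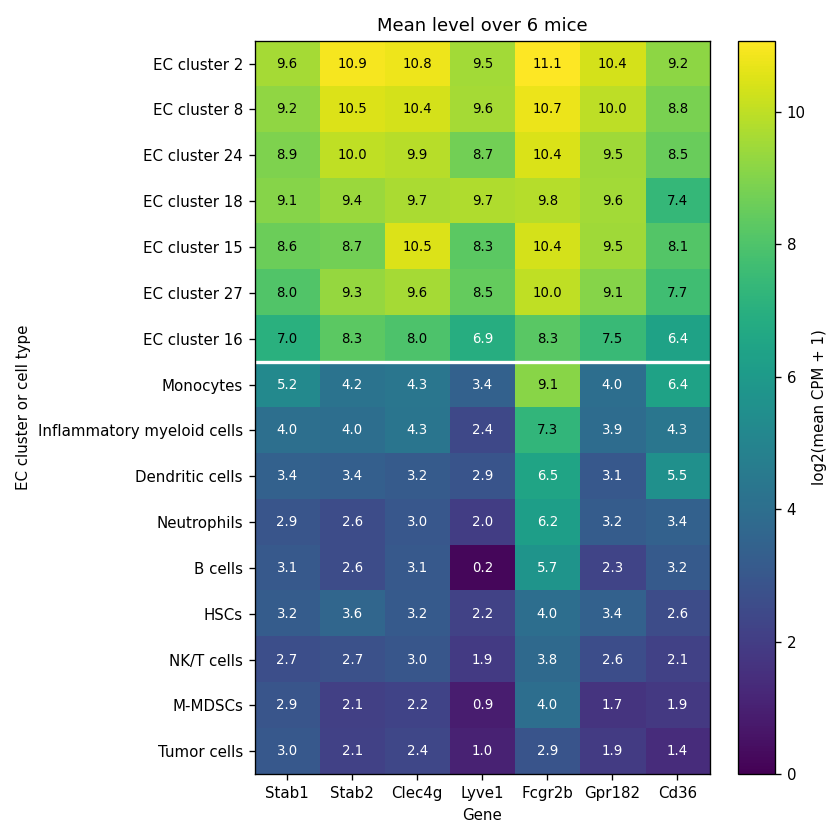
Heat map of log2(mean CPM + 1), with the mean taken over 6 mice, for the 7 genes (columns) in 7 EC clusters and 9 other cell types (rows, separated by the white line). All 7 genes are bright in the EC clusters and darkest in cluster 16 among them, and below the line Fcgr2b stands out in monocytes with 551 CPM and in inflammatory myeloid cells with 157 CPM, and Cd36 in monocytes with 81.2 CPM.

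Within ECs, cluster 2 had the highest mean level of 6 of the 7 genes, for example 1965 ± 406 CPM (SD, n = 6 mice) for Stab2, 2152 ± 425 CPM for Fcgr2b and 1315 ± 92.6 CPM for Gpr182. Cluster 8 followed with 1420 ± 319, 1714 ± 336 and 1009 ± 52.4 CPM for these 3 genes. For Gpr182 the ranges of clusters 2 and 8 over the mice did not overlap, nor did those of clusters 8 and 18. For Stab2 the ranges of neighbouring clusters overlapped. For Fcgr2b they did so too, except for clusters 18 and 16 (541 to 1177 and 181 to 465 CPM). Within each mouse, however, cluster 2 exceeded cluster 8 in 6 of 6 mice for Stab1, Stab2, Clec4g, Fcgr2b, Gpr182 and Cd36, with median log2 ratios of 0.34, 0.45, 0.42, 0.33, 0.36 and 0.40. Lyve1 had no common direction, with cluster 2 above cluster 8 in 3 of 6 mice and a median log2 ratio of -0.10.

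The smaller clusters separated the members from each other. Cluster 18 had 677 ± 318 CPM of Stab2 and 163 ± 84.5 CPM of Cd36, and cluster 2 exceeded it by a median of 1.65 and 2.08 on the log2 scale, in 6 of 6 mice for both. For Stab1 the same ratio was 0.49 and for Gpr182 0.75, while for Lyve1 it was 0.01, with cluster 2 higher in 3 of 6 mice. Cluster 18 was thus poor in Stab2 and Cd36 but had the highest mean of Lyve1, 859 ± 739 CPM. Cluster 15 was shallow, with a median of 1595 UMIs per cell among its cells of at least 1000 UMIs, and had 1428 ± 533 CPM of Clec4g next to 416 ± 174 CPM of Stab2. The Clec4g level of cluster 15 overlapped that of cluster 2 (1766 ± 412 CPM), and cluster 2 was the higher in 5 of 6 mice. Cluster 15 held 3.63 Clec4g UMIs for each Stab2 UMI, against 0.863 in cluster 2 and 0.897 in cluster 8. This was not particular to Clec4g, since the other members were also higher against Stab2 there. For each Stab2 UMI, cluster 15 held 3.80 UMIs of Fcgr2b, 1.99 of Gpr182, 1.07 of Stab1, 0.774 of Cd36 and 0.623 of Lyve1. In cluster 2 these were 1.14, 0.679, 0.393, 0.292 and 0.321. Red cell markers summed to 1818 and 3231 CPM in cluster 15 of stress mice 2 and 3 and to 4.77 CPM or less in the other 4 mice, and their part in these values was not tested. In cluster 16 all 7 members were low, and cluster 2 exceeded it by medians of 2.52 to 2.89 on the log2 scale, in 6 of 6 mice for each. Tumor markers were higher in cluster 16 (values above), and their part in this ratio was not tested. Cluster 27 was not tested because it had fewer than 10 cells in some mice. Its summed level of 7 NK/T markers was 1203 to 2293 CPM. Cluster 24, which was tested, carried markers of myeloid cells. Inflammatory myeloid markers summed to 6334 to 15003 CPM there, against 202 to 608 CPM in cluster 2. DC markers summed to 420 to 5457 CPM in cluster 24 and to 389 to 533 CPM in cluster 2, so these ranges overlapped. Neutrophil markers summed to 32.3 to 1239 CPM in cluster 24, against 1.30 to 12.9 CPM in cluster 2. The part of these markers in the values of cluster 24 was not tested.

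Single ECs commonly carried several of the receptors. To compare cells of unequal depth, each cell was thinned to 1000 UMIs, which left 10823 ECs. It dropped 65, 95 and 45 ECs of control mice 1, 2 and 3 and 98, 190 and 117 of stress mice 1, 2 and 3. Cluster 15 kept 15, 42 and 54 of its 34, 104 and 81 cells in control mice. In stress mice it kept 104, 276 and 313 of 176, 450 and 414. Of the 10823 ECs left, 72.7% had a UMI of Fcgr2b, 66.6% of Clec4g, 62.1% of Stab2, 61.9% of Gpr182, 45.5% of Stab1, 32.4% of Lyve1 and 32.3% of Cd36. In NK/T cells, taken as a comparison and not as cells known to lack these receptors, the shares ran from 0.081% for Lyve1 to 1.09% for Fcgr2b. The median depth before thinning was 4459 UMIs in NK/T cells and 4695 UMIs in ECs. Without thinning the EC shares were 92.0%, 91.9%, 84.0%, 91.6%, 84.7%, 58.7% and 67.3% in the same order, at a median depth of 4538 UMIs. A thinned EC carried UMIs of a median of 4 of the 7 genes, 34.9% carried 5 or more and 3.75% carried none, whereas 96.1% of thinned NK/T cells carried none. In cluster 2, 47.9% of cells carried 5 or more, against 14.9% in cluster 18 and 10.4% in cluster 16.

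**Figure D2:**
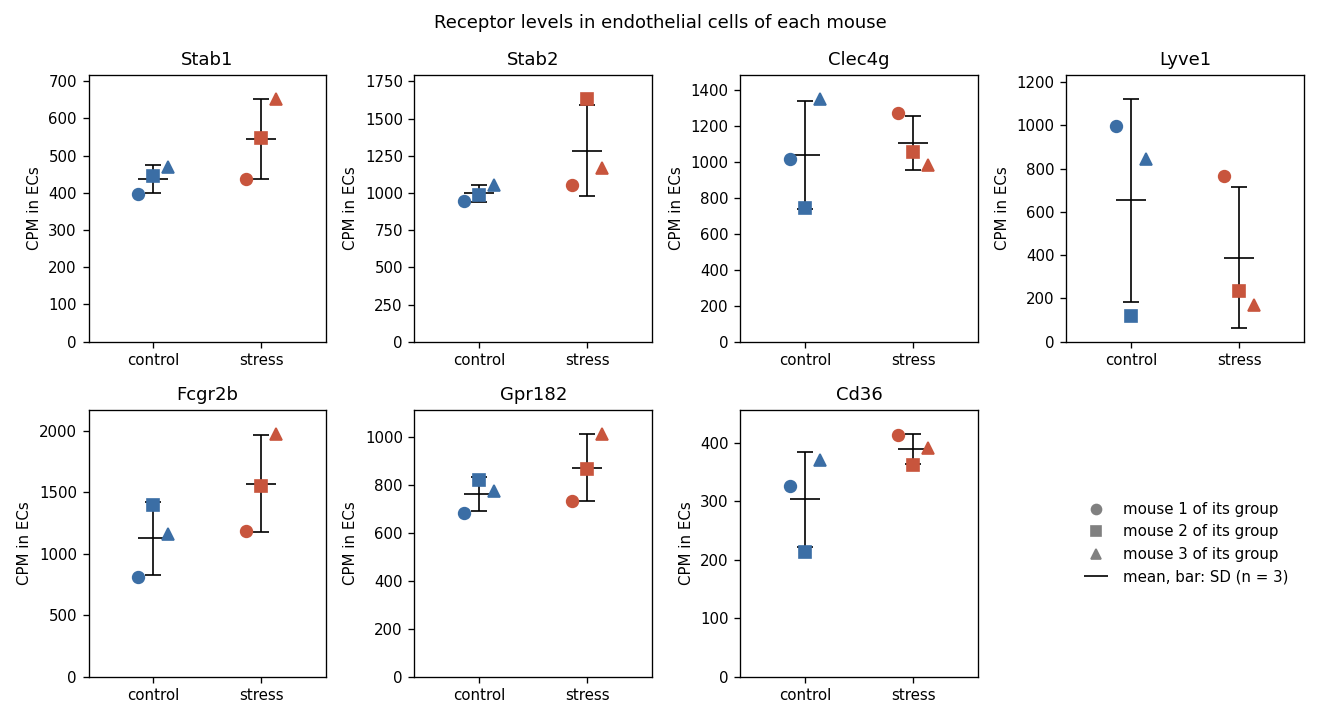
CPM in ECs (vertical axes, starting at 0) of the 7 genes in the 3 control and 3 stress mice, with a point per mouse and the mean and SD of each group (n = 3). Control and stress mice overlap in all 7 panels, and Lyve1, from 119 to 996 CPM, has the largest ratio of highest to lowest mouse.

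The comparison of stress with control mice asks whether stress altered the clearance receptors of tumor ECs. None of the 7 genes passed an adjusted p of 0.05 in ECs by edgeR's quasi-likelihood test, which called 0.213% of the 14090 genes tested, and the 2 groups of mice overlapped for every member, where 12.5% of all genes lay wholly higher and 10.3% wholly lower in stress mice. The count was also 0 by DESeq2, which called 2.99% of all genes, and 0 at an unadjusted p under 0.05 in edgeR, where 15.6% of all genes stood. Of the 7 log2 fold changes (stress minus control) 6 were above 0, with a median of 0.29, against a median of -0.01 and 48.8% above 0 over all genes tested. The 8 general endothelial markers lay close to the members, with a median of 0.27 and 6 above 0. Cluster 16, low in all 7 members, had its smallest share of EC UMIs in stress mouse 3. Without this cluster (an alternative chosen after seeing the data) all 7 log2 fold changes were lower, from -0.88 for Lyve1 and -0.07 for Clec4g to 0.31 for Fcgr2b. Over all genes tested without it the median was -0.0035 and 49.5% lay above 0. The part of cluster 16 in the EC values was not tested. The 6 B cell markers summed to 398 and 1023 CPM in ECs of stress mice 2 and 3, against 9.55 to 21.6 CPM in the other 4 mice, and their part in these values was not tested. Sums of this kind alone cannot tell a change in the share of receptor-bearing cells from a change in RNA per cell. Shares of cells with a UMI are compared below. The standard errors below leave room for differences of the size of the estimates.

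Both stabilins had higher means in stress mice, and the groups overlapped for both. Stab2 was at 946, 989 and 1055 CPM in control mice 1, 2 and 3 and at 1050, 1631 and 1170 CPM in stress mice 1, 2 and 3. Only stress mouse 2 lay far above the rest, and stress mouse 1 lay below control mouse 3. Stab2 thus had a log2 fold change of 0.34 (standard error 0.18, edgeR adjusted p = 0.404), which was 0.15 without stress mouse 2. Stab1 was at 395, 444 and 470 CPM in control mice and 437, 547 and 651 CPM in stress mice, where stress mouse 1 fell within the control range. Its log2 fold change was 0.29 (standard error 0.16, edgeR adjusted p = 0.433), and 0.14 without stress mouse 3.

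For the lectin Clec4g the mice of both groups were interleaved. It was at 1018, 747 and 1350 CPM in control mice and 1274, 1055 and 983 CPM in stress mice. The highest and the lowest mouse were both controls. The log2 fold change was 0.06, well within the standard error of 0.24 (adjusted p = 0.919 from edgeR). It turned to -0.13 without control mouse 2 and -0.07 without stress mouse 1, and was 0.31 without control mouse 3.

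Fcgr2b had the largest positive difference in ECs among the 7 genes. It was at 812, 1399 and 1162 CPM in control mice and 1188, 1548 and 1975 CPM in stress mice. Stress mouse 3 was the highest, control mouse 1 the lowest, and control mouse 2 lay above stress mouse 1. This gave a log2 fold change of 0.46 (standard error 0.25, edgeR adjusted p = 0.429), which was 0.25 without stress mouse 3 and 0.26 without control mouse 1. Gpr182 was at 681, 821 and 776 CPM in control mice and 733, 866 and 1012 CPM in stress mice, with the lowest spread over mice of the 7 genes (highest over lowest 1.48). Its log2 fold change was 0.17 (standard error 0.15, edgeR adjusted p = 0.613), with 0.04 without stress mouse 3, 0.09 without control mouse 1 and 0.27 without stress mouse 1.

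Cd36 had its lowest EC level in control mouse 2. It was at 326, 213 and 370 CPM in control mice and 414, 363 and 392 CPM in stress mice. Only control mouse 3 lay within the stress range, just above stress mouse 2. Cd36 had a log2 fold change of 0.33 (standard error 0.21, edgeR adjusted p = 0.480), which was 0.14 without control mouse 2 and 0.52 without control mouse 3. The share of thinned ECs with a Cd36 UMI was 29.3% ± 4.91 (SD, n = 3) in control mice and 35.9% ± 2.92 in stress mice (two-sided exact permutation test over mice, p = 0.10, the smallest that 3 against 3 allows, 1 of 7 such tests). The difference of 6.59 percentage points was 3.76 without control mouse 2. For the other 6 genes the same test gave p from 0.40 to 0.90. Thinning dropped more ECs from every stress mouse than from any control mouse, and the part of this in the shares was not tested.

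By the ratio of highest to lowest mouse, Lyve1 differed far more than the other members, with high and low mice in both groups. It was at 996, 119 and 845 CPM in control mice 1, 2 and 3 and at 766, 235 and 168 CPM in stress mice 1, 2 and 3. Control mouse 2 and stress mice 2 and 3 were low, and the other 3 mice were high, so each group held both kinds. The log2 fold change was -0.77, less in size than the standard error of 0.82 (adjusted p = 0.678 from edgeR). The highest mouse had 8.36 times the level of the lowest, where the median gene with a mean of at least 50 CPM in ECs had a ratio of 1.39, and 20 of 4048 such genes had a larger ratio than Lyve1. Leaving out stress mouse 1 gave a log2 fold change of -1.74 and leaving out control mouse 1 gave -0.35, the ends of the range over the 6 mice.

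The same mice were low in Lyve1 in every cluster tested. In cluster 2 Lyve1 was at 1549, 159 and 1201 CPM in control mice and 963, 341 and 190 CPM in stress mice. In cluster 18 it was at 1702, 113 and 1367 CPM in control mice and 1503, 308 and 163 CPM in stress mice. Clusters 8, 24, 15 and 16 had the same 3 mice lowest, so the spread was present within each of these clusters. Both the share of positive cells and the UMIs per positive cell followed it, since after thinning 12.3% of ECs of control mouse 2 had a Lyve1 UMI, with 1.22 UMIs per positive cell, against 57.4% and 2.45 in control mouse 1. The 6 lymphatic markers listed summed to 702, 425 and 699 CPM in cluster 2 of control mice and 655, 482 and 524 CPM in that of stress mice. The 3 mice with low Lyve1 were thus also the lowest in this sum, in clusters 2, 8, 16 and 18 but not in clusters 15 and 24. Most of the sum was Flt4, a gene that sinusoidal ECs express too, at 692, 369 and 687 CPM in cluster 2 of control mice and 636, 462 and 511 CPM in that of stress mice. Without Flt4 the other 5 markers summed to 10.1, 56.1 and 11.3 CPM in control mice and 18.1, 19.9 and 13.4 CPM in stress mice there, with control mouse 2 the highest. In cluster 18 these 5 markers summed to 102, 139 and 5.87 CPM in control mice and 4.80, 2.65 and 7.69 CPM in stress mice, so control mice 1 and 2, one high and one low in Lyve1, stood apart. Prox1, which defines lymphatic ECs, was at 5.80 to 8.13 CPM in ECs of the 6 mice. The part of lymphatic markers in the Lyve1 values was not tested. The 3 mice with high Lyve1 also had the largest tumor cell shares (70.1%, 53.6% and 59.9%, against 48.8%, 41.0% and 31.7%) and the lowest NK/T shares (0.88%, 1.36% and 3.72%, against 5.74%, 8.62% and 4.86%). Their median UMIs per cell over all cells were 18291, 16864.5 and 20478, against 9032, 7656 and 7166, while the EC medians (3608, 4921.5 and 4749.5 against 4355, 4456 and 5832) were interleaved. The part of these differences in Lyve1 was not tested.

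**Figure D3:**
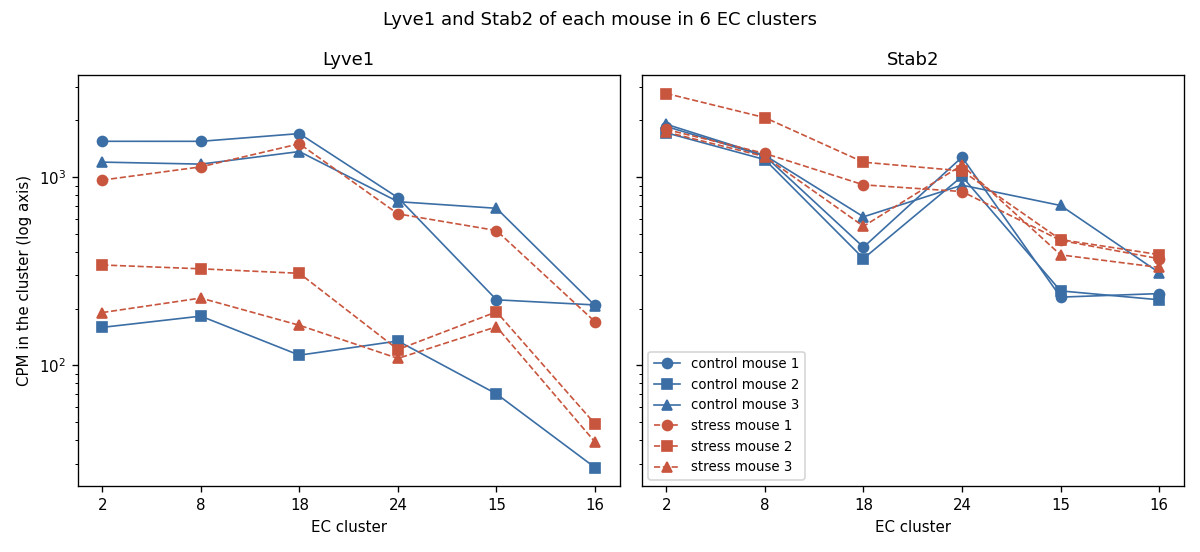
CPM (log axis) of Lyve1 and Stab2 in 6 EC clusters, with a line per mouse (solid blue for control, dashed red for stress). The same 3 mice, of both groups, are lowest in Lyve1 in each cluster, with a wide gap to the other 3 except in cluster 15, where control mouse 1 (223 CPM) lies beside stress mouse 2 (192 CPM), whereas the 6 Stab2 lines of clusters 2 and 8 lie together apart from stress mouse 2, at 2781 CPM in cluster 2.

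Cluster by cluster, 0 of 42 tests of a member (7 genes in 6 clusters) passed the threshold in edgeR or in DESeq2. Of the genes to which it gave an adjusted p, DESeq2 called 1.31%, 1.12%, 3.99%, 1.85%, 1.58% and 0.49% in clusters 2, 8, 15, 16, 18 and 24. In cluster 15 these were 1477 genes, where edgeR tested 5226, and in cluster 24 3268, where edgeR tested 5899, so the shares of the 2 tools are not alike. Of all genes tested, edgeR called 0.196%, 0.278%, 0.153%, 0.636%, 1.02% and 0.136% in the same clusters. At an unadjusted p under 0.05 there were 8, all with higher stress means and all in clusters 15, 16 and 18, while over all genes 13.5%, 10.8%, 14.7%, 14.8%, 17.2% and 6.83% had such a p in clusters 2, 8, 15, 16, 18 and 24. In cluster 15, Gpr182 was at 319, 558 and 668 CPM in control mice and 687, 924 and 1132 CPM in stress mice, and Cd36 at 96.4, 136 and 281 CPM in control mice and 396, 351 and 400.1 CPM in stress mice. The groups did not overlap for these 2 genes, as for 9.4% of all genes in the same direction. Their log2 fold changes were 0.87 (standard error 0.31, edgeR adjusted p = 0.246) and 1.19 (standard error 0.35, edgeR adjusted p = 0.169). The control mice had few cells in cluster 15, 1.73% to 5.35% of their ECs against 11.3% to 23.1% in stress mice, and Cd36 there rested on 13, 33 and 59 UMIs. The 6 tumor markers summed to 438, 397 and 329 CPM in cluster 15 of control mice and 308, 240 and 98.6 CPM in that of stress mice, so that every control mouse was higher. The 22 genes of the sinusoidal program summed to 3865 to 8420 CPM in control mice and 9194 to 13363 CPM in stress mice there, and they separated the groups in other clusters too (values below). Monocyte markers (178 to 625 against 632 to 773 CPM), Kupffer cell markers (0 to 14.3 against 17.2 to 74.6 CPM) and B cell markers (16.5 to 33.4 against 34.5 to 88.6 CPM) were also higher in every stress mouse in cluster 15. The part of these differences in the Gpr182 and Cd36 values was not tested.

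In cluster 18, Stab2 was at 424, 369 and 615 CPM in control mice and 909, 1199 and 547 CPM in stress mice. Stress mouse 3 lay within the control range, and the log2 fold change of 0.89 (standard error 0.29) had an adjusted p of 0.170 from edgeR. Stab1, Fcgr2b and Gpr182 did not overlap between the groups in cluster 18, and Stab1, Stab2 and Fcgr2b did not in cluster 16, where 11.8% and 11.6% of all genes did so in this direction. In cluster 18 the 6 tumor markers summed to 97.5 to 142 CPM in control mice and 27.9 to 75.2 CPM in stress mice, while in cluster 16 the groups overlapped (491 to 594 and 456 to 714 CPM). The 6 B cell markers summed to 3127 CPM in cluster 18 of stress mouse 3, against 18.6 CPM or less in the other 5 mice. In cluster 16 they summed to 1360 and 4066 CPM in stress mice 2 and 3, against 16.6 CPM or less in the other 4. These sums were mostly Igkc, an immunoglobulin light chain gene, while the B cell genes Cd79a, Cd79b and Ms4a1 were each at 2.80 CPM or less in both clusters of every mouse. The 8 endothelial markers separated the groups in cluster 18, at 5901 to 6963 CPM in control mice and 8167 to 8921 CPM in stress mice. Control mice 1 and 2, the lowest in Stab2 there, were also the mice with lymphatic markers other than Flt4 in this cluster (values above). The part of these markers in the members' values was not tested. Holding the cluster proportions fixed in all mice left log2 ratios of the group means of 0.28 for Stab2, 0.36 for Fcgr2b, 0.25 for Cd36, 0.20 for Stab1, 0.07 for Gpr182, -0.04 for Clec4g and -0.84 for Lyve1 (7 two-sided exact permutation tests, p from 0.20 to 1, with 0.10 the smallest possible). With 1 mouse left out these ratios ran from 0.05 (without stress mouse 2) to 0.40 for Stab2, from 0.03 (without control mouse 2) to 0.42 for Cd36, from 0.21 to 0.51 for Fcgr2b, from 0.12 to 0.29 for Stab1, from -1.86 (without stress mouse 1) to -0.36 (without control mouse 1) for Lyve1 and from 0.02 to 0.13 for Gpr182.

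**Figure D4:**
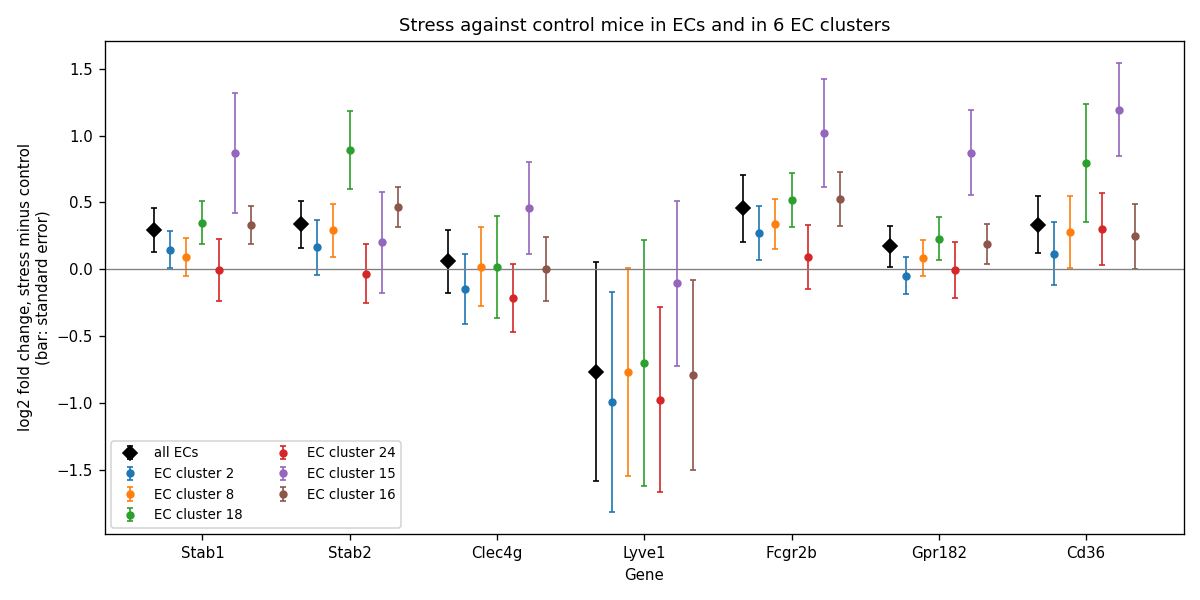
Log2 fold change, stress minus control, from edgeR for each gene in all ECs (black diamonds) and in 6 EC clusters (coloured points), with a standard error derived from the F statistic. Estimates in clusters 15 and 18 reach the highest values, up to 1.19 for Cd36 in cluster 15, those of clusters 2, 8 and 24 lie between -0.22 and 0.34 for the 6 genes other than Lyve1, and Lyve1 lies below 0 throughout with the widest bars.

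Whether the stress difference varied between the 2 large clusters was tested directly. An interaction test of cluster 2 against cluster 8, with the mouse as a block, called 0.454% of 11459 genes and 0 of the 7 members, with 2 members (Clec4g and Stab2) at an unadjusted p under 0.05, where 9.1% of all genes stood. The differences between the clusters' log2 fold changes lay between -0.17 for Cd36 and 0.06 for Stab1, with standard errors of 0.05 to 0.09. For Clec4g the difference was -0.16 (standard error 0.07, edgeR adjusted p = 0.449).

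Outside ECs, Fcgr2b was the member most clearly present. In monocytes it was at 542, 548 and 657 CPM in control mice and 456, 465 and 636 CPM in stress mice, and the groups overlapped. Its log2 fold change was -0.11 and its standard error 0.22 (adjusted p = 0.861 from edgeR). After thinning, 43.3% of monocytes had an Fcgr2b UMI, against 16.9% of inflammatory myeloid cells, 9.96% of DCs, 7.56% of B cells and 1.09% of NK/T cells. Monocytes held 31.4 Fcgr2b UMIs for each Stab2 UMI and B cells 10.4, where ECs held 1.22. The mean level was 551 CPM in monocytes, 157 in inflammatory myeloid cells, 88.3 in DCs and 52.0 in B cells, where the monocyte range over mice lay above the other 3 and each of the other neighbours overlapped.

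Cd36 was also present in myeloid cells. In monocytes it was at 41.1, 85.5 and 52.7 CPM in control mice and 86.8, 92.3 and 129 CPM in stress mice. Each stress mouse exceeded each control mouse, control mouse 2 only just, as was the case for 6.82% of the 12251 genes tested there. Markers of other cell types also separated the groups in monocytes in this direction, with sums of 1.6 to 35.8 CPM in control mice and 45.1 to 80.1 CPM in stress mice for NK/T cells, 1.48 to 3.20 and 8.36 to 39.6 CPM for HSCs, and 0.40 to 2.23 and 10.3 to 20.8 CPM for hepatocytes. Their part in the Cd36 values was not tested. The log2 fold change was 0.83 (standard error 0.29), and its adjusted p of 0.327 from edgeR did not pass. In inflammatory myeloid cells Cd36 was at 7.20, 5.86 and 7.66 CPM in control mice and 33.7, 23.7 and 37.3 CPM in stress mice. The groups lay far apart there, and 3% of all genes separated in the same direction. The log2 fold change of 2.39 (standard error 0.45) had an unadjusted p of 0.00023 and an adjusted p of 0.425 in edgeR, which called 0% of 9219 genes in this cell type, with 3.96% at an unadjusted p under 0.05. DESeq2, which called 0.0651% of all genes there, called Cd36, with a log2 fold change of 2.41 and an adjusted p of 0.0131. The values rested on 11, 13 and 24 UMIs in control mice and 29, 24 and 162 UMIs in stress mice. Stab2, which marks EC transcripts, was at 11.8, 12.2 and 5.11 CPM in these control samples and 9.29, 31.6 and 20.98 CPM in the stress samples, and hepatocyte markers summed to 0 to 0.64 CPM in control and 1.84 to 6.96 CPM in stress samples. The part of either in the Cd36 values was not tested. In monocytes and DCs, Cd36 UMIs outnumbered those of Stab2 by 5.35 and 6.77 to 1, against 0.302 to 1 in ECs. After thinning, a Cd36 UMI was found in 7.21% of monocytes, 6.30% of DCs and 0.958% of inflammatory myeloid cells, against 0.284% of NK/T cells. Cd36 in DCs was at 26.5, 60.1 and 17.95 CPM in control mice and 45.4, 62.1 and 61.1 CPM in stress mice (a difference of 0.70 on the log2 scale with a standard error of 0.32 and an edgeR adjusted p of 0.286). Control mouse 2 lay with the stress mice there, and without it the log2 fold change was 1.53 with an adjusted p of 0.00941 from edgeR, which then called 3.66% of all genes.

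**Figure D5:**
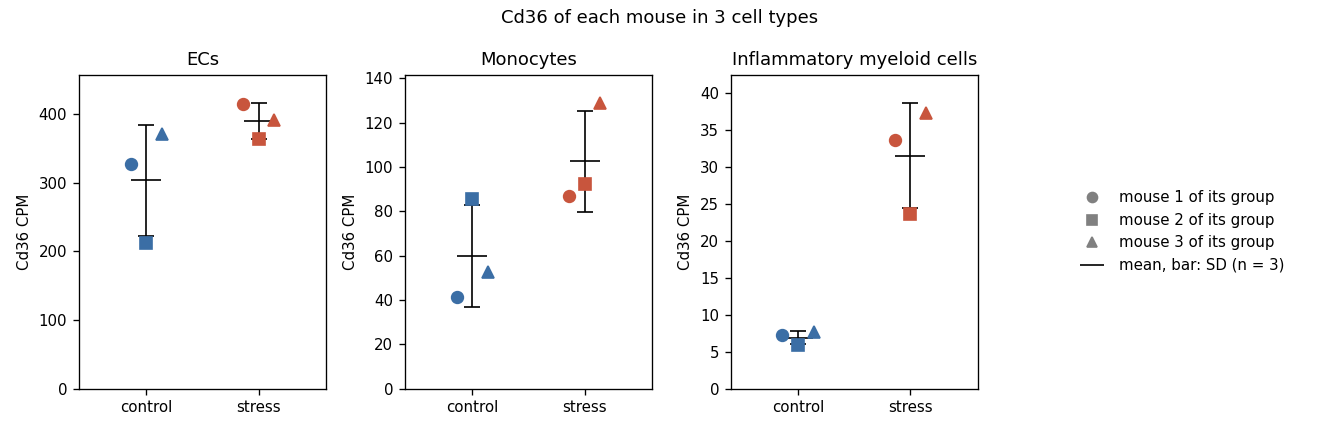
Cd36 CPM (vertical axes, each starting at 0) in ECs, monocytes and inflammatory myeloid cells of the 3 control and 3 stress mice, with a point per mouse and the mean and SD of each group (n = 3). The groups overlap in ECs and do not overlap in monocytes or in inflammatory myeloid cells, where control mice lie at 7.66 CPM or less and stress mice at 23.7 CPM or more.

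Whether the stress difference varied between ECs and monocytes was tested in the same way, and 0 members passed. The interaction test of ECs against monocytes called 0% of 15107 genes in edgeR, with 8.31% at an unadjusted p under 0.05. Fcgr2b was the only member with such a p, with a log2 fold change 0.64 higher in ECs than in monocytes (standard error 0.23, unadjusted p = 0.0191, adjusted p = 0.509 from edgeR). For Cd36 the difference was -0.43 (standard error 0.40, edgeR adjusted p = 0.821).

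Stab1 was at 45.9, 29.8 and 44.3 CPM in monocytes of control mice and 35.5, 24.1 and 35.9 CPM in those of stress mice, with overlapping groups (a difference of -0.27 on the log2 scale with a standard error of 0.25 and an edgeR adjusted p of 0.682). With 1 mouse left out this difference ran from -0.46 (without control mouse 2) to -0.08 (without stress mouse 2). It was found in 3.37% of thinned monocytes against 0.729% of NK/T cells, and the ratio to Stab2 was 1.88 in monocytes and 0.439 in ECs. Stab2, Clec4g and Gpr182 had mean levels of 17.6, 19.2 and 15.1 CPM in monocytes and lower levels in lymphoid cells. Their ratios to each other in monocytes, 1.02 Clec4g and 0.896 Gpr182 UMIs per Stab2 UMI, stood beside 0.923 and 0.726 in ECs. In HSCs, which had 6 to 50 cells per mouse and were not tested, stress mouse 3 carried all 7 members at 7.39 to 67.7 CPM and the other mice at 14.4 CPM or less. Over the 7 other cell types tested, members passed the filter on low counts in 35 tests (all 7 in monocytes and tumor cells, 6 in DCs, inflammatory myeloid cells and NK/T cells, 2 in M-MDSCs and 1 in B cells). None passed the threshold in edgeR, 7 had an unadjusted p under 0.05 (Cd36 in monocytes, inflammatory myeloid cells, DCs and tumor cells, Clec4g in DCs and inflammatory myeloid cells, and Stab2 in inflammatory myeloid cells) and DESeq2 called 1, Cd36 in inflammatory myeloid cells, among the 28 of these tests for which it gave an adjusted p (none of those in NK/T cells had one). Of the genes to which it gave an adjusted p, DESeq2 called 1.47% in monocytes, 3.6% in DCs, 26.5% in tumor cells, 3.47% in NK/T cells, 0.881% in M-MDSCs and 1.18% in B cells. In NK/T cells these were 4901 genes, where edgeR tested 11196, and in B cells 4559, where edgeR tested 5796. Over all genes tested, the shares edgeR called were 0.122% (monocytes), 2.64% (DCs), 21.4% (tumor cells), 0.857% (NK/T cells), 0.561% (M-MDSCs) and 0.483% (B cells), and the shares at an unadjusted p under 0.05 were 12%, 17%, 37.4%, 13.1%, 9.56% and 11.1% in this order. Besides Cd36 in monocytes and inflammatory myeloid cells, 2 members separated the groups, Clec4g in DCs (2.99 to 6.25 CPM in control mice, 8.04 to 13.4 CPM in stress mice) and Cd36 in tumor cells (1.09 to 1.51 and 1.71 to 2.14 CPM), as did 8.28% and 28.2% of all genes there in this direction.

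Genes that work with these receptors were examined in the same EC test. Of 12 other scavenger receptors tested, 0 passed the threshold in edgeR, with a median log2 fold change of -0.02. Colec12, a membrane-bound scavenger collectin, was at 4.64, 3.71 and 3.07 CPM in control mice and 8.13, 8.06 and 7.23 CPM in stress mice (a difference of 1.01 on the log2 scale with a standard error of 0.21 and an edgeR adjusted p of 0.117), and DESeq2 called it (adjusted p = 0.0187). Olr1, which encodes the oxidized LDL receptor LOX-1, and Scarb2, a lysosomal member of the Cd36 family, had log2 fold changes of -0.76 and 0.27. Of 14 other lectin receptors tested 0 passed in edgeR and 13 lay above 0, with a median of 0.46, and 9 of 13 with a median of 0.25 without cluster 16. Among them the mannose receptor Mrc1, a major endocytic receptor of sinusoidal ECs, was at 486, 593 and 596 CPM in control mice and 634, 823 and 962 CPM in stress mice (a difference of 0.50 on the log2 scale with a standard error of 0.18 and an edgeR adjusted p of 0.254). Cd302 and Lgals9 had log2 fold changes of 0.48 and 0.31 (edgeR adjusted p = 0.146 and 0.272), and DESeq2 called Cd302 (adjusted p = 0.0369). Of 6 other Fc receptors 0 passed in edgeR, and Fcrla, Fcer1g (the signalling chain of activating Fc receptors) and Fcgr1 had log2 fold changes of -0.86, -0.46 and 0.96, the last at under 3 CPM in every mouse. DESeq2 called Fcrla lower in stress mice (adjusted p = 0.0428).

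The wider program of sinusoidal ECs was examined next. Of 22 genes of that program tested, 0 passed the threshold in edgeR, 22 lay above 0 and the median log2 fold change was 0.34, beside -0.01 over all genes. Without cluster 16 the median was 0.19 and 17 of 22 lay above 0. Kit, a receptor tyrosine kinase, was at 218, 317 and 231 CPM in control mice and 474, 449 and 451 CPM in stress mice (a difference of 0.82 on the log2 scale with a standard error of 0.15 and an edgeR adjusted p of 0.102). Plxnc1, a semaphorin receptor, and F8, coagulation factor VIII, which the liver's ECs produce, had log2 fold changes of 0.69 and 1.12 (edgeR adjusted p = 0.133 and 0.228). DESeq2 called these 3 higher in stress mice, beside 2.99% of all genes tested in ECs. The 22 genes summed to 10269 to 11520 CPM in ECs of control mice and 13220 to 15434 CPM in those of stress mice. The 8 general endothelial markers separated the groups in ECs as well, at 4370 to 5270 and 5338 to 6422 CPM, and their part in the sum of the program was not tested. The groups were also apart in the sum of the program in clusters 2 (16332 to 17268 against 19264 to 20813 CPM), 8 (15433 to 16104 against 18371 to 19304 CPM), 16 (2687 to 3245 against 3496 to 3945 CPM) and 18 (11068 to 13169 against 15412 to 17518 CPM), and overlapped in cluster 24. Of single genes, 12.5% lay wholly higher in stress mice in ECs, 11.6% in cluster 16 and 11.8% in cluster 18. These are shares of genes and not of sums, and none was computed for clusters 2 and 8. Kit, Plxnc1 and F8 are part of each sum. Plxnc1 alone was at 787, 1071 and 926 CPM in ECs of control mice and 1390, 1510 and 1684 CPM in those of stress mice. Of 16 genes of continuous and tumor vessels 0 passed, 5 lay above 0 and the median was -0.18, and the water channel Aqp1 was at 1837, 1299 and 1695 CPM in control mice and 1411, 1094 and 1141 CPM in stress mice. Nid2 and Esm1 of that list had log2 fold changes of 1.30 and -0.80 (edgeR adjusted p = 0.239 and 0.367).

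Of 16 endocytosis and lysosome genes 0 passed, with a median of 0.10, and the late endosome GTPase Rab7 and the clathrin adaptor subunit Ap2a1 had log2 fold changes of 0.32 and -0.31. Of 13 genes tied to Cd36 and fatty acid handling 0 passed, with a median of -0.14. Fabp5, a fatty acid binding protein gene, was at 258, 204 and 241 CPM in control mice and 153, 207 and 119 CPM in stress mice (-0.58 on the log2 scale, with an edgeR adjusted p of 0.253), and Angptl4, at 1.31 CPM or less in every mouse, had a log2 fold change of 2.16 (adjusted p = 0.133 from edgeR). Pparg had a log2 fold change of -0.57 (adjusted p = 0.361 from edgeR). Of 6 tested genes for reported ligands of these receptors or enzymes that make them 0 passed, and Cxcl10, which Gpr182 binds, was at 298, 414 and 522 CPM in control mice and 333, 312 and 425 CPM in stress mice. Cxcl13 and Thbs1, the latter encoding a ligand of CD36, had log2 fold changes of -1.29 and 0.43 (edgeR adjusted p = 0.467 and 0.693).

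Across the 16 classes (9 other cell types and 7 EC clusters) the members resembled each other and other EC genes. By the Pearson r of log2(CPM + 1), given as a description because the classes share libraries and were built from these genes, Clec4g was most like Gpihbp1 (r = 0.998), Gpr182 and Ctsj, and Gpr182 was most like Myct1, Armcx4 and Clec4g. Stab2 was most like Acer2, Cyyr1 and Oit3 (r = 0.995 for each), Stab1 most like Lepr, Ctsj and F8, and Lyve1 most like Myct1, Ptprb and Cyyr1. Fcgr2b was most like Cd36 (r = 0.981), Cd93 and Tfec, and Cd36 was most like Mrc1 (r = 0.984), Fcgr2b and Slc7a8. The r of Fcgr2b and of Cd36 with Stab2 was 0.900 and 0.930, whereas the other 5 members had r of at least 0.982 with each other.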

How the data were processed

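Fresh H22 tumor tissue of 3 control and 3 stress mice was measured by 10x Genomics single-cell RNA-seq, with each mouse sequenced as its own library. The values used are UMI counts for every gene and barcode, deposited by the authors without normalization and made with Cell Ranger on mm10 (9.0.0 in the headers of the control files, 7.1.0 in those of the stress files), and an annotation of cell types and clusters made with Seurat, in which cells above 20% mitochondrial counts and doublets called by Scrublet were said to be removed. The largest mitochondrial share found in annotated cells was 20.0%. A doublet call repeated here marked 3.11% to 6.38% of cells per library, and those cells were kept. Of 61374 barcodes, 58794 were annotated and used. Counts were summed per mouse over each cell type and EC cluster, and classes with fewer than 10 cells in any mouse were not tested. Sums were compared with edgeR 4.0.16 (R 4.3.3, TMM factors, filterByExpr, quasi-likelihood F-test, 3 against 3 mice), with Benjamini-Hochberg adjustment over all genes tested in a class and a threshold of 0.05. Interactions were tested in 1 edgeR model with the mouse as a block. The standard errors given with edgeR values were derived from its F statistic, as the size of the log2 fold change over the square root of F. EC counts of 13915 genes were simulated with the same dispersion (scatter between mice) for every gene, unlike measured genes. On these counts the test of stress against control recovered 66 of 100 genes changed 2-fold and 100 of 100 changed 4-fold, with 9 false calls. In the measured ECs 30 genes passed, while F8 and Colec12, with log2 fold changes of 1.12 and 1.01, did not (edgeR adjusted p = 0.228 and 0.117). Whether the recovered shares hold for the measured counts was not tested. Shares of cells were compared after thinning to 1000 UMIs, by exact permutation over mice, whose smallest p is 0.10. Replicates were separate mice.

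The 7 genes and all gene lists were chosen with earlier results of these data known. From each list the 3 genes with the smallest p in ECs are named, together with the 3 genes most like each member among those with at least 10 CPM in a class. A gene that this rule names is not reported here. Alternatives were DESeq2 1.42.0, RLE factors, no filter on low counts, a replicate block, leaving out each mouse, EC cluster 15, EC cluster 16 (added after seeing the data) or called doublets, and thinned cells. Cell types are the authors'. Marker lists for other cell types were tested in ECs as well, where edgeR called 0 of their genes and DESeq2 called 3 higher in stress mice (Ccr7 of the DC list, Igkc of the B cell list and Col1a1 of the HSC list). The 2 B cell markers that passed the filter had a median log2 fold change of 5.47. Of the genes in the files, 32109 of 34099 were found in GENCODE M21. Python 3.11.15 and scanpy 1.11.5 were used for reading, thinning and doublet calls.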

Additional observations from a re-analysis of the deposited data

How the results depend on the processing

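Of 292 values recomputed under the alternatives, 264 kept their direction or count, and their side of the threshold where they had an adjusted p. Shares of cells, ratios at fixed cluster proportions and counts of calls had none. No member was called in ECs under any of the 14 alternatives run there, with adjusted p ranging from 0.136 (Fcgr2b) upward, while the genes called in ECs numbered 30 in the test reported, 107 with no filter on low counts, 131 with the replicate block, 421 with DESeq2 and 3 (without control mouse 1) to 46 (without control mouse 2) when 1 mouse was left out. The EC log2 fold change of Clec4g turned to -0.0037 without called doublets and -0.067 without cluster 16 (chosen after seeing the data), and ran from -0.13 (without control mouse 2) to 0.31 when 1 mouse was left out, with -0.068 without stress mouse 1. That of Gpr182 was -0.0011 in cells thinned to 1000 UMIs, and that of Fcgr2b in monocytes ran from -0.32 to 0.019, the latter without control mouse 3. With no filter on low counts, 5 tests of a member passed in EC clusters (Lyve1 in cluster 8, Fcgr2b and Cd36 in cluster 15, Stab2 and Cd36 in cluster 18) and 2 in other cell types (both of Cd36, in DCs and in inflammatory myeloid cells). Under that setting 2.09%, 1.44% and 2.51% of all genes were called in clusters 8, 15 and 18, and 3.79% and 0.39% in DCs and inflammatory myeloid cells. For Lyve1 in cluster 8 the log2 fold change was -0.78 with a standard error of 0.21, against -0.77 and 0.78 in the test reported. Its groups overlapped there, at 182 to 1549 CPM in control mice and 227 to 1133 CPM in stress mice. The smaller standard error thus does not reflect the spread over these mice. Calls in other cell types numbered 1 with DESeq2 and ranged from 0 to 1 when 1 mouse was left out, the 1 being Cd36 in DCs without control mouse 2. Cd36 in inflammatory myeloid cells passed with no filter (log2 fold change 2.32, adjusted p = 0.00147 from edgeR), with the replicate block (2.34, adjusted p = 0.0335 from edgeR) and with DESeq2 (2.41, adjusted p = 0.0131). Besides 3 markers of other cell types, DESeq2 called 6 list genes in ECs, namely Colec12, Cd302, F8, Kit and Plxnc1 higher and Fcrla lower in stress mice. With no thinning, the differences in the share of ECs with a UMI turned to -0.862 (Stab1), -1.14 (Stab2), -0.888 (Clec4g) and -2.66 (Gpr182) percentage points. When 1 mouse was left out, these shares ran from -2.38 to 6.34 percentage points for Clec4g, with -0.689 without stress mouse 1, and from -1.96 to 2.27 for Gpr182, with -1.27 without control mouse 1. With the cluster proportions fixed, the log2 ratio of Clec4g was 0.032 with equal weights and ran from -0.25 to 0.20 when 1 mouse was left out, with 0.09 without stress mouse 3 and 0.0064 without stress mouse 2. The cause was not tested for any of these.

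Mice of the 2 groups share replicate numbers, and the deviations of same-numbered mice correlated at 0.571, 0.434 and 0.016, so the numbers were not taken to pair the mice. With the replicate block, 3 members had an unadjusted p under 0.05 in ECs, 2 tests passed in EC clusters (Fcgr2b and Cd36 in cluster 15, adjusted p = 0.0414 and 0.0320 from edgeR) and 1 in other cell types. With the block, 23.1% of all genes had an unadjusted p under 0.05 in ECs, and 3.67% were called in cluster 15 and 0.0976% in inflammatory myeloid cells. Control mice 1 and 2 correlated best with the stress mouse of their own number and control mouse 3 did not. Depth limits the low classes most, and Cd36 in NK/T cells, for example, rested on 1 to 26 UMIs in a mouse.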

Other observations

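Among the 20 genes with a wider spread over mice than Lyve1 in ECs, chosen after their values were seen, several followed the same mice. Ednrb, an endothelin receptor gene, was at 699, 35.3 and 331 CPM in control mice 1, 2 and 3 and 504, 39.0 and 68.0 CPM in stress mice 1, 2 and 3. Ctsj, which is also among the genes most like Stab1 and Clec4g across classes, was at 403, 14.3 and 575 CPM in control mice and 337, 24.5 and 96.5 CPM in stress mice. Btnl9 was at 157, 16.8 and 128 CPM in control mice and 139, 27.8 and 37.9 CPM in stress mice. In each of these genes control mouse 2 and stress mice 2 and 3 were the lowest 3, as for Lyve1. Pdgfb, which encodes a growth factor for pericytes, had those mice highest, at 9.73, 73.8 and 12.6 CPM in control mice and 17.6, 101 and 114 CPM in stress mice. Plcb1 did so too, at 41.1, 226 and 31.8 CPM in control mice and 51.8, 291 and 214 CPM in stress mice.

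Others of the 20 genes separated the groups. Lars2 was at 411, 383 and 424 CPM in control mice and 2852, 3394 and 2559 CPM in stress mice. Gphn was at 558, 453 and 586 CPM in control mice and 3719, 3919 and 2956 CPM in stress mice. The Cell Ranger version differs in the same way between the groups, and the versions and stress cannot be told apart.

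The barcodes that the annotation left out, 264 to 549 per mouse, carried the receptors at low levels. Fcgr2b was at 20.9, 38.2 and 17.4 CPM in those of control mice and 20.7, 37.0 and 67.4 CPM in those of stress mice. Lyve1 was at 34.8, 1.09 and 9.49 CPM in control mice and 12.1, 5.02 and 5.44 CPM in stress mice, where control mouse 2 and stress mice 2 and 3 were again the lowest 3.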
